A study of Sus scrofa with 25 samples.

Results

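Collagen genes were described in skeletal muscle of 25 pigs, crosses of Polish Large White sows with Landrace boars, fed for 90 days from day 85 of life on feeds that differed in vitamin D3. The control group of 8 pigs had 0 IU/kg, the D5000 group of 8 pigs had 5000 IU/kg and the D10000 group of 9 pigs had 10000 IU/kg. Litters were spread over the 3 diets, and each library came from 1 pig and carries that pig's number as its replicate number. The labels do not name the muscle, the sex or the litter of each pig. A gene was counted as a collagen gene when its Ensembl pig symbol was COL, a number, A and a number, and when it had at least 1 count in the 25 libraries. This gave 35 of 25879 genes. Of 40 such symbols in the name table, 38 could be looked up; COL2A1, COL10A1 and COL24A1 had 0 counts in every library, which allows up to 0.0139 CPM (gene counts scaled to the same total in every library) over the 25 libraries together, for counting error only, and COL4A1 and COL19A1 were not analysed here.

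Collagens are proteins of the extracellular matrix built from alpha chains that wind into triple helices. In muscle, fibrillar type I and type III collagen form most of the connective tissue around fibres and bundles, type IV collagen builds the basement membrane that wraps each fibre and capillary, and type VI collagen forms microfibrils that link the fibres of the matrix to it. The chains are made largely by fibroblasts, with endothelial cells, adipocytes and other cells adding basement membrane chains, and each chain is hydroxylated, folded, secreted, trimmed and crosslinked by a shared set of enzymes.

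Gene counts ran from 3310507 to 15177976 per library, and 24.9% to 70.6% of the reads in a library were assigned to genes. Skeletal muscle markers summed to 56414 to 252570 CPM in 24 libraries and to 12274 CPM in D10000 replicate 27. In that library all 8 adipocyte markers had counts and summed to 12828 CPM, against 67.8 to 392 CPM in the other 24. Its fibroblast markers (11 of 12 with counts there, TCF21 at 0, collagens left out) summed to 3153 CPM against 370.3 to 1157 CPM, its endothelial markers (6 of 8 listed genes could be looked up) to 629 CPM against 76.6 to 211 CPM, its smooth muscle and pericyte markers to 676 CPM against 113 to 347 CPM, and its tendon markers to 256 CPM against 5.46 to 77.1 CPM. Of the 6 cartilage markers, CNMD, HAPLN1, MATN1 and MATN3 were at 0 counts in every library. The libraries D5000 replicate 18 and D10000 replicate 2 had the lowest shares of assigned reads (24.9% and 28.4%, median of all libraries 56.3%). Liver transcripts such as ALB were present in every library, between 2531 and 27415 CPM in sum in 24 libraries and at 1967 CPM in D10000 replicate 27. In bulk tissue, a change in the number of cells of a type and a change in the RNA each cell makes cannot be told apart.

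The fibrillar chains made up most of the collagen signal. All 35 genes together held 0.0921% to 0.323% of the gene counts in 24 libraries and 0.914% in D10000 replicate 27. COL1A1, COL3A1 and COL1A2 took 72.0% ± 6.52 (SD, n = 25) of the collagen counts of a library. By structural class, the fibrillar chains averaged 74.4% ± 6.56 of the collagen counts, the fibril-associated (FACIT) chains 7.90% ± 3.25, the type VI chains 7.37% ± 1.91, the multiplexins COL15A1 and COL18A1 5.88% ± 1.53, and the type IV chains without COL4A1 4.05% ± 1.76 (SD, n = 25 each). Levels are in CPM of 3' end reads, which do not scale with transcript length but depend on how well a gene's 3' end is annotated; 16.3% to 38.1% of the reads of a library lay outside annotated genes, and the part this has in the order of the genes was not tested.

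COL1A1 (ENSSSCG00000036135), the more abundant of the 2 chains of type I collagen, had 405.5 to 906 CPM in the control with a median of 618 CPM. It had 312 to 1334 CPM in D5000 (median 616 CPM) and 336 to 3423 CPM in D10000 (median 819 CPM). Without D10000 replicate 27, which held the 3423 CPM, the D10000 group reached 1565 CPM with a median of 769 CPM, and the ranges of the 3 diets overlapped. COL3A1 (ENSSSCG00000016034), the single chain of type III collagen found in compliant tissue, had 163 to 717 CPM in the control (median 375 CPM). Its range was 145 to 594 CPM in D5000 (median 357 CPM) and 68.2 to 3058 CPM in D10000 (median 572 CPM). D10000 held both the lowest library for COL3A1, replicate 1 at 68.2 CPM, and the highest, replicate 27. COL1A2 (ENSSSCG00000015326), the second chain of type I collagen, ran from 70.0 to 226 CPM in the control with a median of 134 CPM. It ran from 69.4 to 436 CPM in D5000 (median 156 CPM) and from 89.1 to 570.0 CPM in D10000 (median 179 CPM). For COL1A2 the highest library was D10000 replicate 2 and the next was D5000 replicate 18, while replicate 27 had 272 CPM.

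The minor fibrillar and the fibril-associated chains were less abundant. COL5A2, a type V chain that sits in the core of type I fibrils, had medians of 27.6, 22.5 and 33.5 CPM in the control, D5000 and D10000. COL5A3, another type V chain, had medians of 11.6, 10.0 and 9.71 CPM. In D10000 replicate 27 these genes stood at 314 and 290 CPM, against at most 69.6 and 19.6 CPM in any other library. COL14A1, a FACIT chain that lies on the surface of fibrils, had 59.6 to 134 CPM in the control (median 116 CPM), 70.7 to 243 CPM in D5000 (median 123 CPM) and 85.3 to 308 CPM in D10000 (median 132 CPM). COL16A1, a FACIT chain of lower abundance, had medians of 6.60, 3.68 and 7.01 CPM.

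Among the chains of the basement membrane zone, COL4A2 had 31.4 to 130 CPM in the control (median 64.1 CPM), 33.8 to 115 CPM in D5000 (median 51.6 CPM) and 30.9 to 434 CPM in D10000 (median 67.1 CPM; 54.5 CPM without replicate 27). COL15A1, a multiplexin of the outer basement membrane zone, had medians of 51.9, 57.7 and 71.3 CPM and a range of 15.7 to 120 CPM over 24 libraries, with 382 CPM in replicate 27. COL18A1, the multiplexin whose C-terminal fragment is endostatin, ran from 12.2 to 79.6 CPM in the control, from 18.3 to 87.6 CPM in D5000 and from 18.0 to 88.1 CPM in D10000. For all of these genes the diets overlapped. COL18A1 had a wide spread inside each diet, and replicate 27 was in the middle of it at 33.9 CPM.

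The type VI chains did not share 1 pattern. COL6A3, the largest chain of classical type VI collagen, had medians of 83.8, 58.2 and 91.4 CPM in the control, D5000 and D10000. COL6A1, a second chain of the same molecule, had medians of 19.7, 26.9 and 30.5 CPM, a range of 3.32 to 54.1 CPM over 24 libraries and 437 CPM in D10000 replicate 27. COL6A2, the third chain of that molecule, had a count in 7 of 25 libraries and at most 9.24 CPM, in D5000 replicate 18. COL6A5, an alternative chain, had medians of 17.2, 27.6 and 19.6 CPM, with its highest value of 74.5 CPM in D10000 replicate 7.

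**Figure D1:**
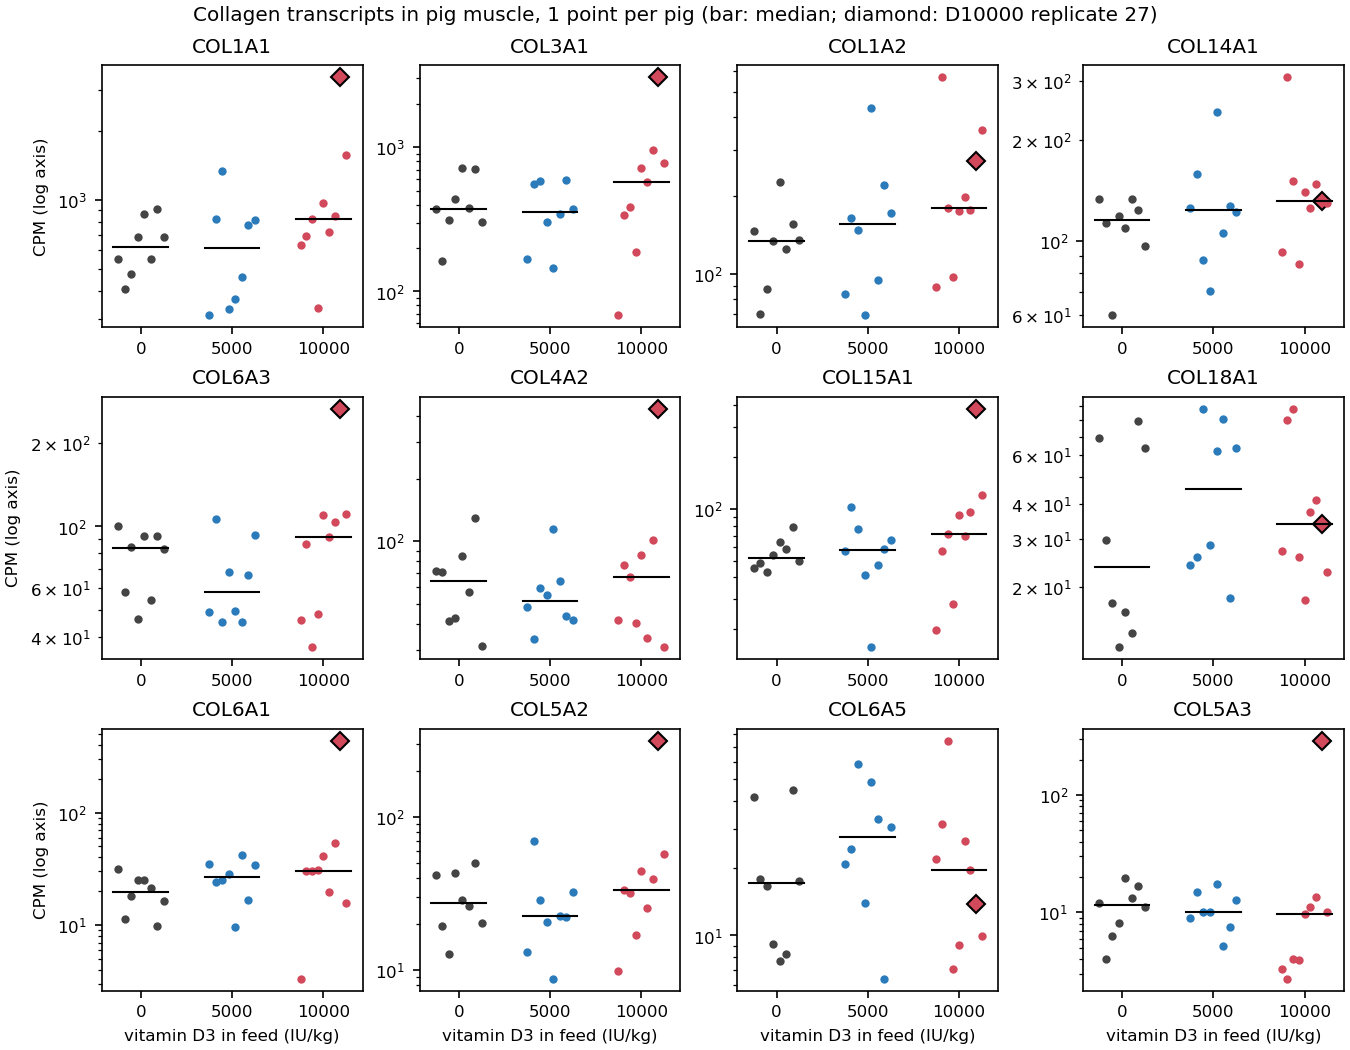
CPM of the 12 most abundant collagen genes on a log axis against vitamin D3 in the feed (IU/kg); each point is 1 pig, the bar is the median of a diet and the diamond is D10000 replicate 27. The diamond is the highest point for COL1A1 (3423 CPM), COL3A1, COL6A3, COL4A2, COL15A1, COL6A1, COL5A2 and COL5A3, and lies within the other points for COL1A2, COL14A1, COL18A1 and COL6A5.

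The first comparison asked whether collagen transcripts differed in muscle of pigs on 5000 IU/kg against the control. No collagen gene passed the threshold: 17 of the 35 had enough counts to be tested with edgeR's quasi-likelihood test, and 0 had an adjusted p under 0.05 after Benjamini-Hochberg adjustment over 10992 genes (background 0%). None of the 17 had an unadjusted p under 0.05 either, which 3.38% of all genes had. Their median log2 fold change was -0.03, against 0.01 over all genes tested, with 8 of 17 higher (51.0% of all genes were higher). Without D10000 replicate 27, which belongs to neither group but shares the fit, 8 of 16 were higher (51.7% of all genes) and 0 of 16 had an unadjusted p under 0.05 (background 4.34%). COL1A1 differed by -0.03 ± 0.39 on the log2 scale (SE of the fit), with a 95% interval of -0.82 to 0.76. COL3A1 differed by -0.12 ± 0.50 and COL1A2 by 0.21 ± 0.35, each smaller in size than its SE. COL8A2, a short-chain network collagen, had the smallest p of the group in edgeR, with -1.99 ± 1.24 (unadjusted p = 0.117, adjusted p = 0.999), and its D5000 median was 0 CPM. It passed the count filter narrowly: it fell below it when any 1 of 5 D10000 libraries (replicates 1, 2, 20, 27 and 30) was left out. The next were COL4A5, a type IV chain, with 1.22 ± 0.83 and COL6A5 with 0.46 ± 0.37 (unadjusted p = 0.150 and 0.221, edgeR); COL6A5 was at 0.29 without D5000 replicate 11. COL8A1, the partner chain of COL8A2, had medians of 1.80, 2.64 and 3.23 CPM in the control, D5000 and D10000, and differed by 0.84 ± 0.75 at 5000 IU/kg. Without D5000 replicate 18, which had 23.8 CPM of it, that difference was 0.17.

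The second comparison set 10000 IU/kg against the control. Again 0 of 17 tested collagen genes passed the adjusted threshold in edgeR (background 0%), and 1 of 17, COL6A1, had an unadjusted p under 0.05 (background 2.39%). The fitted log2 fold change was above 0 for 17 of 17 (57.2% of all genes), with a median of 0.59 against 0.07 over all genes. Without D10000 replicate 27, 13 of 16 were above 0 (51.8% of all genes), the median was 0.15 against 0.02, and 0 of 16 had an unadjusted p under 0.05 (background 1.76%). COL8A2, 1 of the 17 above 0, was the gene not tested without that library.

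COL6A1 showed how far 1 library carried these values. Its fitted difference from the control was 1.53 ± 0.58 with all libraries (unadjusted p = 0.0134, adjusted p = 1.00, edgeR) and 0.37 ± 0.39 without replicate 27. COL5A3 went from 1.42 ± 0.71 to -0.62 ± 0.39, COL5A2 from 0.85 ± 0.49 to 0.09 ± 0.39, and COL4A2 from 0.41 ± 0.37 to -0.19 ± 0.28. COL3A1 went from 0.69 ± 0.49 to 0.22 ± 0.44, COL15A1 from 0.71 ± 0.41 to 0.28 ± 0.36 and COL1A1 from 0.60 ± 0.38 to 0.30 ± 0.35. COL1A2 differed from these, with 0.59 ± 0.34 with and 0.61 ± 0.35 without that library and a 95% interval without it of -0.10 to 1.32, which includes 0. COL1A2 had the smallest p of the group without replicate 27 (unadjusted p = 0.0903, edgeR), and leaving out D10000 replicate 30 from the 25 brought its difference to 0.39. COL4A5 had 0.05 ± 0.80 with and -1.23 ± 0.76 without replicate 27. COL14A1 (0.20 ± 0.25), COL6A3 (0.23 ± 0.34), COL18A1 (0.03 ± 0.33) and COL6A5 (0.05 ± 0.36) lay close to 0 with all libraries. The largest fitted differences in the remaining classes were 0.84 ± 1.18 for COL4A4, a type IV chain known from kidney and ear, and 1.31 ± 1.13 for COL8A2. Since COL8A2 fell below the count filter without any 1 of 5 D10000 libraries, its value is a description and supports no difference. Without D10000 replicate 2, which had 11.2 CPM of COL4A4, the COL4A4 difference was 0.13.

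The third comparison set 10000 against 5000 IU/kg; it shares its libraries with the other comparisons. Of 17 tested collagen genes 0 passed the adjusted threshold (background 0%) and 2, COL8A2 and COL5A3, had an unadjusted p under 0.05 in edgeR (background 2.94%). Of the 17, 13 were above 0 (54.6% of all genes), with a median of 0.64 against 0.04 over all genes. Without replicate 27, 10 of 16 were above 0 (50.0% of all genes) with a median of 0.14 against 0.00. The fitted value of COL8A2 was 3.30 ± 1.26, with 0 CPM as its D5000 median and its highest values, 9.49 and 6.34 CPM, in D10000 replicates 27 and 2. Since COL8A2 was tested only through libraries of the other diets than D5000, this value is a description and supports no difference. In the fit of the D10000 and D5000 libraries alone it was not tested, 15 collagen genes were, and 0 of the 15 had an unadjusted p under 0.05 in edgeR. COL5A3 differed by 1.56 ± 0.71 with all libraries and by -0.49 ± 0.39 without replicate 27. COL6A1 differed by 1.15 ± 0.57 and by 0.00 ± 0.39 without it. COL16A1 had 0.89 ± 0.52 and 0.67 ± 0.52, and COL4A4 had 1.33 ± 1.20 and 1.51 ± 1.20 (0.61 without D10000 replicate 2). COL4A4, with a D5000 median of 0 CPM, was also not tested in the fit of the D10000 and D5000 libraries alone. Its values here are a description too.

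COL4A5, the type IV chain encoded on the X chromosome in mammals, had the only unadjusted p under 0.05 among the 16 collagen genes tested without D10000 replicate 27. It had 0.49 to 2.29 CPM in the 8 D10000 libraries that remained (median 1.11 CPM) and 0 to 25.9 CPM in D5000 (median 4.34 CPM), so the groups overlapped. The fitted difference of 10000 against 5000 IU/kg was -2.47 ± 0.78 (unadjusted p = 0.00325, adjusted p = 1.00, edgeR; background 2.02%). The 25.9 CPM came from D5000 replicate 18; with that library and D10000 replicates 2 and 27 all left out the difference was -2.06 (unadjusted p = 0.0175, edgeR). With all 25 libraries, in which replicate 27 had 20.2 CPM, it was -1.17 ± 0.80.

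**Figure D2:**
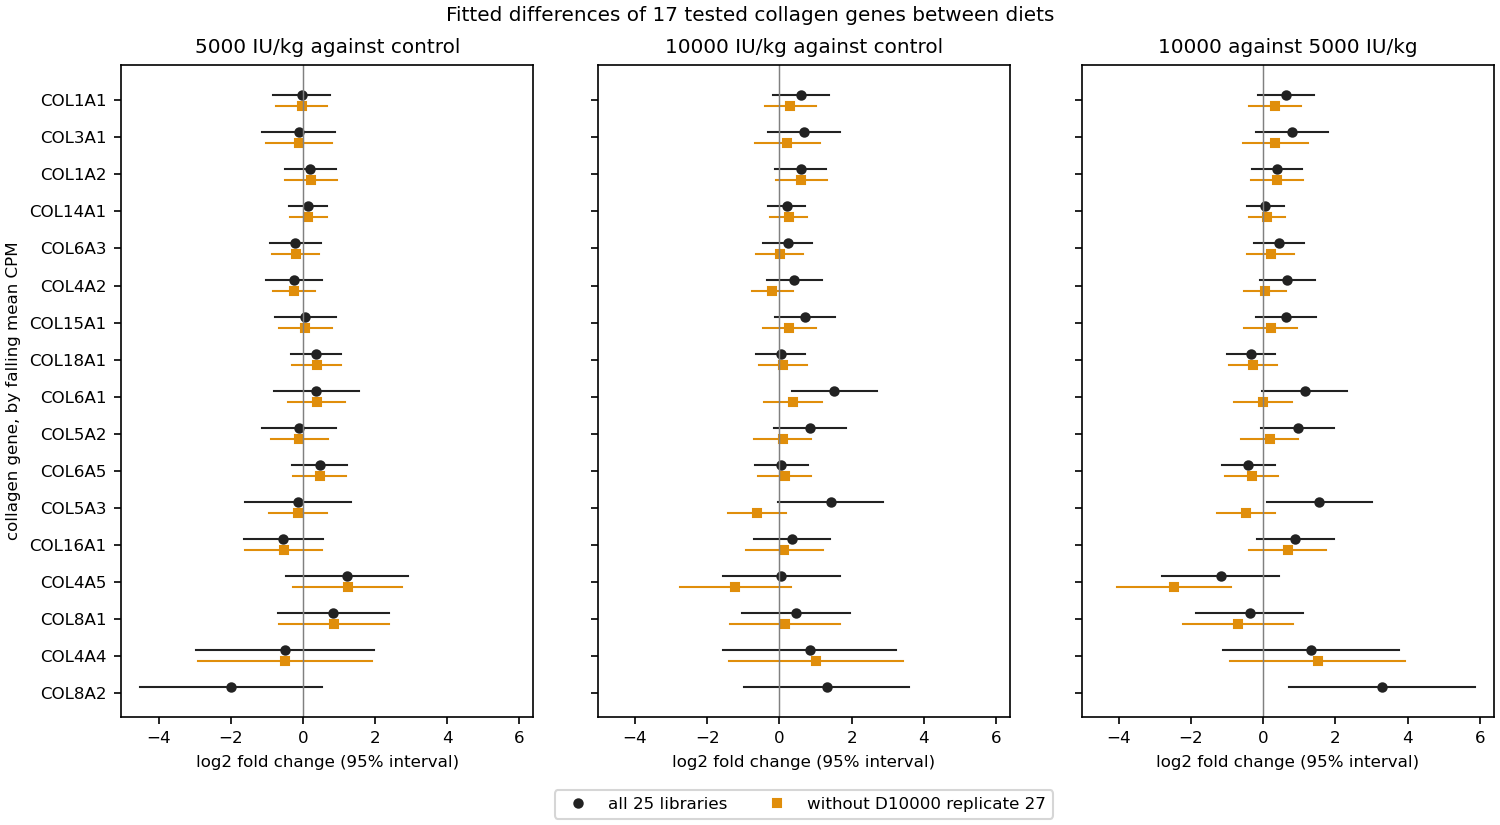
Fitted log2 fold change (x axis) with its 95% interval for the 17 tested collagen genes (y axis, by falling mean CPM) in the 3 comparisons, with all 25 libraries (black) and without D10000 replicate 27 (orange). Intervals include 0 except for COL6A1 at 10000 IU/kg against control and COL8A2 (tested only through libraries of the other diets than D5000) and COL5A3 at 10000 against 5000 IU/kg with all libraries, and for COL4A5 at 10000 against 5000 IU/kg without replicate 27.

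D10000 replicate 27 had a collagen profile of its own as well as a higher sum. It was the highest of 25 libraries for 10 of the 17 tested genes, and 12 of the 17 stood above 2 times the median of the other 24. The same shares over all genes tested are not given here, so these counts are not read as particular to collagen genes. Both counts include COL8A2, which fell below the count filter when replicate 27 was left out. Relative to that median, COL5A3 was 28.9 times, COL6A1 17.4 times, COL5A2 11.4 times, COL3A1 8.14 times, COL4A2 7.76 times, COL15A1 6.64 times and COL1A1 4.96 times as high. COL1A2 was 1.79 times, COL18A1 1.17 times and COL14A1 1.06 times as high, and COL6A5 0.682 times. COL13A1, a transmembrane chain not tested for low counts, had 6.92 CPM there, while D5000 replicate 5 had 7.03 CPM. These ratios compare 1 library with 24 and carry no test. The summed adipocyte, fibroblast, endothelial, smooth muscle and tendon markers were higher in the same library, but not each marker. All 8 adipocyte markers were above their highest value elsewhere, among them ADIPOQ, the adipocyte hormone adiponectin, at 1234 CPM against at most 52.9 CPM. Of the 12 fibroblast markers 5 were, and GSN, which encodes the actin-severing protein gelsolin, held 2624 of the 3153 CPM. The fibroblast marker DCN was at 83.1 CPM against a median of 83.2 CPM in the other 24, PDGFRA at 0.622 against 1.20 CPM, FBLN2 at 4.74 against 10.4 CPM and DPP4 at 24.7 against 32.6 CPM. Among the endothelial markers 4 of 6 were above their highest value elsewhere, while CDH5 was at 1.09 CPM against a median of 7.47 CPM and KDR at 6.92 against 6.81 CPM. The smooth muscle and pericyte markers did so for 5 of 7. Of the 6 tendon markers 4 did, with FMOD holding 206 of the 256 CPM, THBS4 at 4.98 against a median of 10.1 CPM and MKX at 0. SCX, 1 of these 4, had 1 count in all 25 libraries together, in replicate 27 (0.078 CPM). The part of each cell type in the collagen values was not tested.

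The ratio of COL1A1 to COL1A2, whose products form type I collagen in a fixed proportion with more of the first, was 4.91 ± 0.823 in the control, 4.58 ± 2.27 in D5000 and 5.26 ± 3.19 in D10000 (SD, n = 8, 8 and 9). In 23 libraries it lay between 3.46 and 12.6, the highest value belonging to D10000 replicate 27. In D5000 replicate 18 it was 0.843 and in D10000 replicate 2 it was 1.22, so that COL1A2 nearly equalled or passed COL1A1. These libraries had the lowest shares of assigned reads. They also had the highest COL14A1 (243 and 308 CPM, against at most 158 CPM in the other 23) and the highest DCN, which encodes the fibril-binding proteoglycan decorin (495 and 352 CPM, against at most 155 CPM). Their COL1A1 levels, 367 and 694 CPM, and COL3A1 levels, 145 and 338 CPM, were inside the range of the others. The part of the assigned share in these values was not tested.

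The ratio of COL1A1 to COL3A1 does not depend on library scaling. It was 1.66 ± 0.463 in the control, 1.76 ± 0.528 in D5000 and 2.44 ± 2.61 in D10000 (SD, n = 8, 8 and 9). D10000 replicate 1, with COL1A1 at 634 CPM and COL3A1 at 68.2 CPM, had a ratio of 9.30, and the next in its group was 2.12. In exact two-sided permutation tests over 12870 or 24310 splits, the mean log2 ratio differed from the control by 0.08 at 5000 IU/kg (p = 0.709) and by 0.20 at 10000 IU/kg (p = 0.701), and between the doses by 0.12 (p = 0.813). The adjusted permutation p over the 3 was 0.813 for each. Without D10000 replicate 1 both differences of the D10000 group changed sign, to -0.09 against the control and -0.17 against D5000 (adjusted p = 0.664, exact permutation test).

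**Figure D3:**
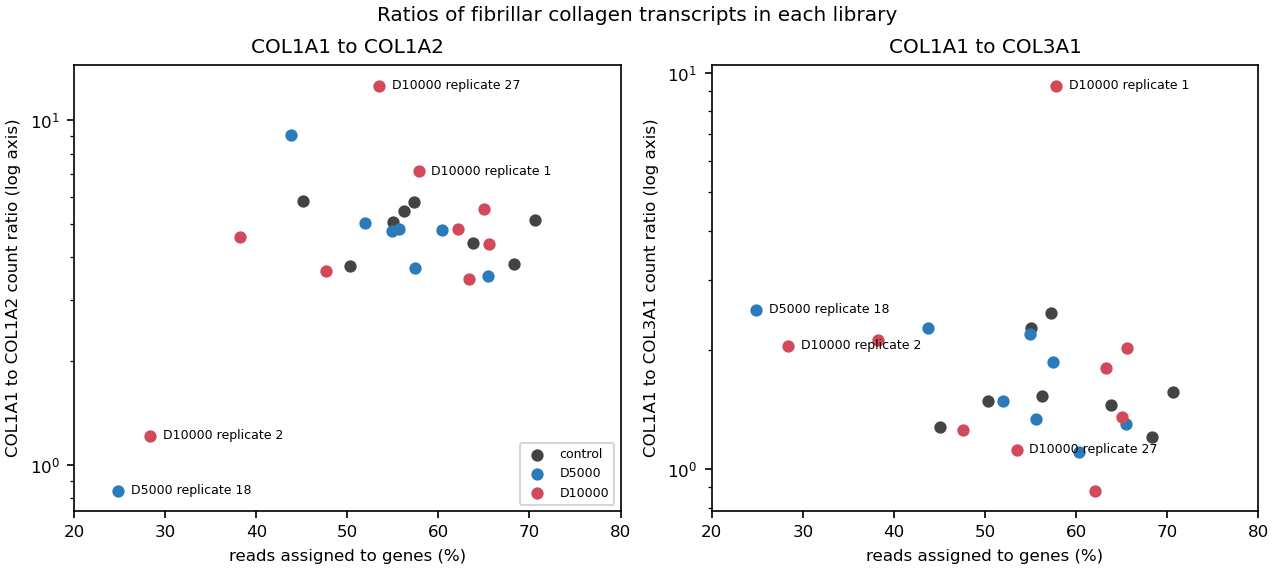
Ratio of COL1A1 to COL1A2 counts (left) and of COL1A1 to COL3A1 counts (right) on log axes against the share of reads assigned to genes (%); each point is 1 library, coloured by diet. D5000 replicate 18 (0.843) and D10000 replicate 2 (1.22) lie apart in the left panel, and D10000 replicate 1 (9.30) in the right panel.

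Some collagen genes varied together across pigs. Relations were described with Pearson r on values centred within diets and Spearman rho on log2(CPM + 0.5), with n = 25. They numbered 140 in all. P-values come from 100000 permutations within diets, and adjusted values cover the 140. CPM of all genes share a library total, and of the 140 relations 134 were added after the values had been seen. COL1A1 and COL3A1 varied together across pigs with r = 0.80 and rho = 0.88 (permutation adjusted p = 0.000817 and 0.000156). Without D10000 replicates 27 and 30, the libraries farthest from the median of COL1A1, r was 0.69, and rho was 0.90 and 0.81 in the 12 libraries with a lower and the 13 with a higher share of assigned reads. COL15A1 followed both, with rho of 0.88 to COL1A1 and 0.87 to COL3A1, and COL5A2 followed COL3A1 with rho = 0.79 and COL15A1 with rho = 0.80. Each of these held without replicate 27 (rho 0.86 or more for COL15A1 with COL1A1 and COL3A1, 0.77 for COL5A2 with COL3A1 and 0.78 with COL15A1). Among COL1A1, COL3A1, COL5A2, COL15A1 and COL6A3, rho of the 10 pairs lay between 0.53 and 0.88, and 9 of 10 had an adjusted permutation p under 0.05 (7 of 10 without replicate 27). These genes were grouped after their rho had been seen, so these counts describe the grouping and do not test it. COL1A2, outside the group, had such a p with COL1A1 and COL3A1 (rho 0.64 and 0.58). COL5A3 had such a p with COL6A3 (rho 0.57), but not without replicate 27. Of the 66 pairs among the 12 most abundant collagen genes, 14 had such a p, and 11 without replicate 27.

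Between COL1A2 and its partner chain COL1A1 rho was 0.64 (r = 0.45, permutation adjusted p = 0.0191 for rho and 0.159 for r), and it was 0.13 in the 12 libraries with a lower share of assigned reads and 0.90 in the 13 with a higher share, so the pooled value did not hold in both sets. COL1A2 and COL14A1 had r = 0.75 and rho = 0.67 (permutation adjusted p = 0.00150 and 0.0129), with rho of 0.71 and 0.57 in these sets. Without D5000 replicate 18 and D10000 replicate 2, r was 0.55. COL1A2 and DCN had r = 0.78 and rho = 0.63, and r = 0.60 without the same libraries. COL4A2, the only abundant type IV chain analysed, had rho = 0.70 (permutation adjusted p = 0.00712) with PECAM1, an endothelial junction protein, and rho = 0.66 without replicate 27. For COL5A3 with PECAM1 rho was 0.58, and 0.52 without replicate 27 (permutation adjusted p = 0.0277 and 0.0760). COL4A2 had no adjusted p of rho under 0.05 with any of the other 11 abundant collagen genes.

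COL18A1 and COL6A5 varied together as a pair. Their r was 0.86 and their rho 0.83 (permutation adjusted p = 0.000200 and 0.000156), with rho of 0.73 and 0.53 in the sets with lower and higher shares of assigned reads. With the other 10 abundant collagen genes their rho on CPM lay between -0.21 and 0.28, and 7 of the 20 were below 0. On values scaled by TMM, edgeR's library scaling, all 20 were below 0, from -0.38 to -0.12. The pair itself had rho = 0.75 there, and the 10 pairs among COL1A1, COL3A1, COL5A2, COL15A1 and COL6A3 had 0.65 to 0.93. Both followed ALB, the albumin transcript made by liver: rho was 0.82 for COL18A1 and 0.90 for COL6A5 (permutation adjusted p = 0.000156 each), and within the sets by share it was 0.62 and 0.65 for COL18A1 and 0.81 and 0.70 for COL6A5. Both were lower where more reads were assigned to genes, with rho of -0.81 for COL18A1 and -0.87 for COL6A5. Within the sets these became -0.25 and -0.56 for COL18A1 and -0.64 and -0.67 for COL6A5. ALB ran from 934 to 18158 CPM. On TMM-scaled values rho with ALB was 0.78 for COL18A1 and 0.83 for COL6A5, and rho with the assigned share was -0.70 and -0.78. COL1A1 and COL3A1 had rho of -0.12 and -0.32 with ALB on CPM (permutation adjusted p = 0.776 and 0.355) and of -0.46 and -0.53 on TMM-scaled values, which carry no p here. The part of liver transcripts and of the assigned share in the COL18A1 and COL6A5 values was not tested.

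**Figure D4:**
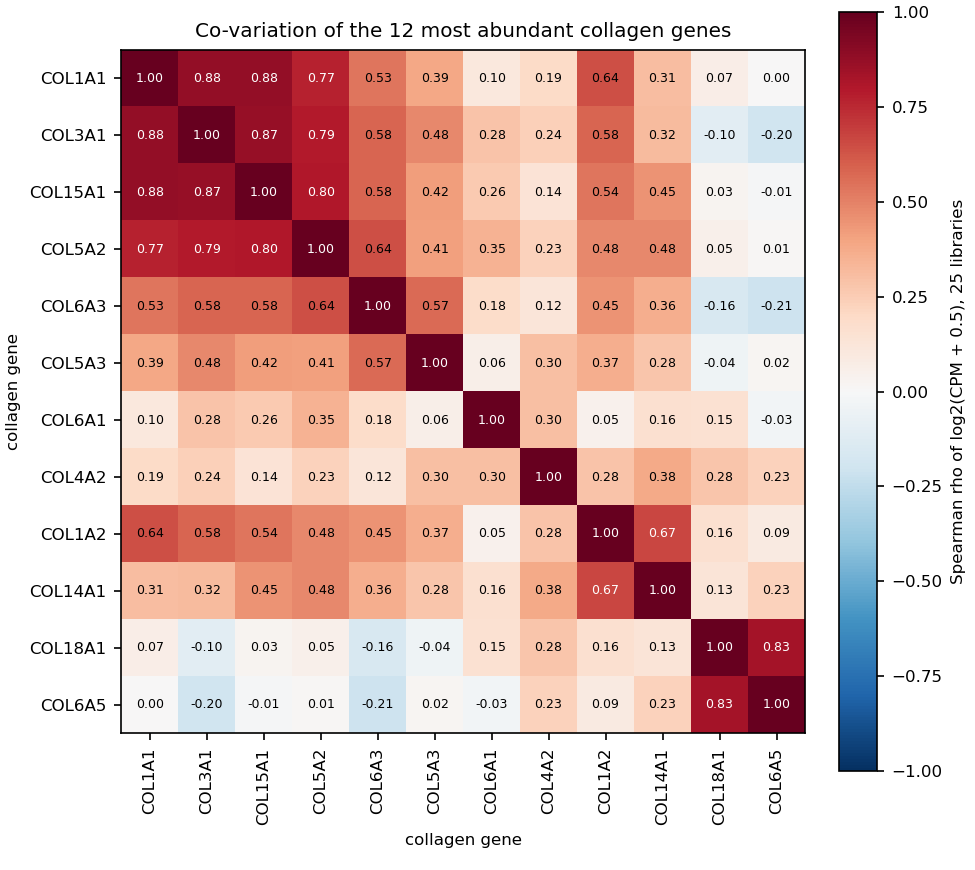
Spearman rho between the 12 most abundant collagen genes over 25 libraries (colour scale from -1 to 1, value printed in each cell). A block of COL1A1, COL3A1, COL15A1, COL5A2 and COL6A3 has values of 0.53 to 0.88, and COL18A1 with COL6A5 (0.83) stands outside it.

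**Figure D5:**
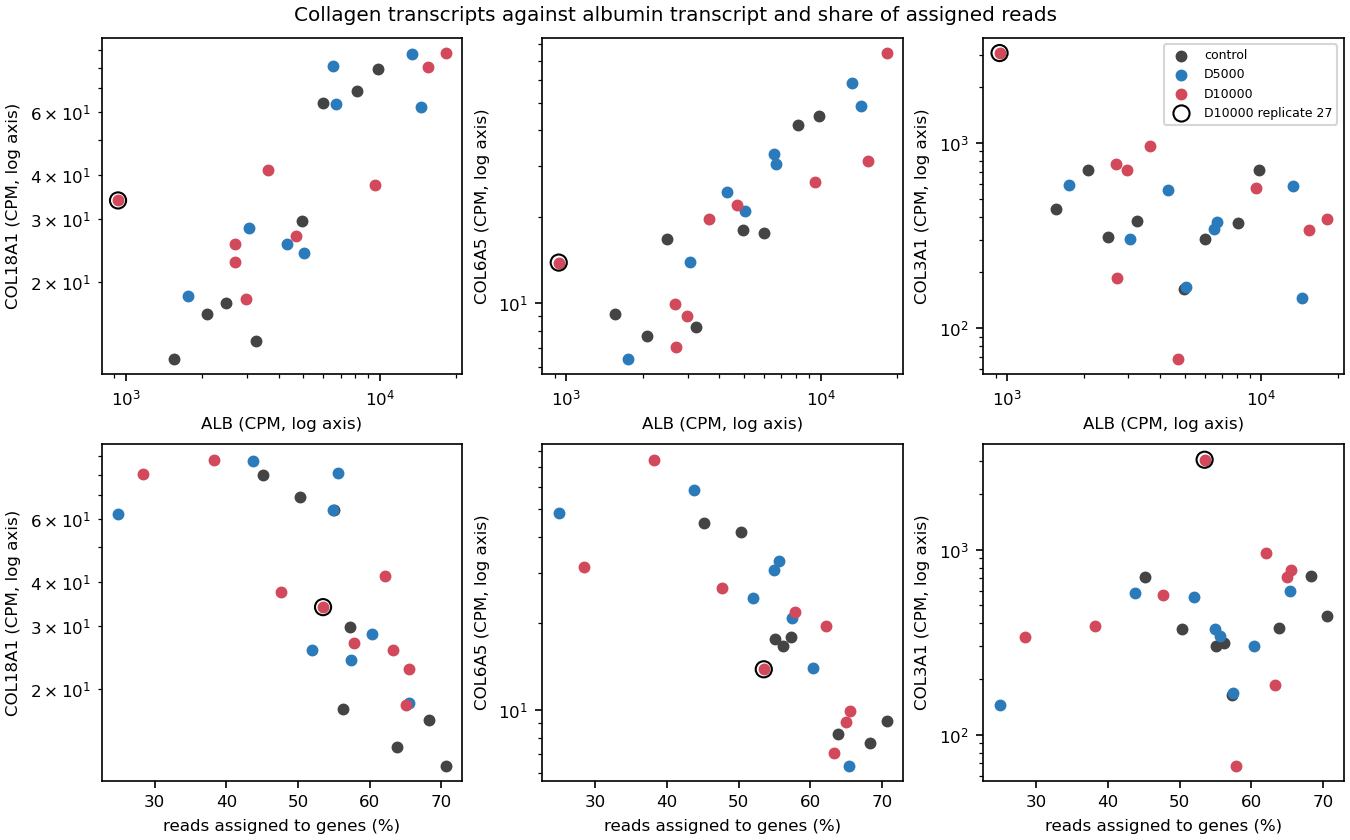
CPM of COL18A1, COL6A5 and COL3A1 on log axes against ALB CPM on a log axis (upper) and against the share of reads assigned to genes in percent (lower); each point is 1 library, coloured by diet, and the ring is D10000 replicate 27. COL18A1 and COL6A5 climb with ALB (rho 0.82 and 0.90), and COL3A1 does not (rho -0.32 on CPM, -0.53 on TMM-scaled values).

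The relations of COL1A1 to SERPINH1, ADIPOQ and ACTA1, genes outside the family, were weaker than those to COL3A1, COL15A1 and COL5A2. They were not weaker than those to every collagen gene: rho of COL1A1 was 0.31 with COL14A1 and 0.19 with COL4A2. With SERPINH1, the collagen-specific chaperone HSP47, it had r = 0.14 and rho = 0.07 (permutation adjusted p = 0.736 and 0.874). With ADIPOQ it had r = 0.56 and rho = 0.39, and r = 0.27 and rho = 0.31 without replicate 27. That rho was 0.01 in the 12 libraries with a lower share of assigned reads and 0.75 in the 13 with a higher share. The pooled value thus did not hold in both sets. With ACTA1, skeletal muscle actin, COL1A1 had r = -0.31 and rho = -0.03, and r turned to 0.13 without replicate 27. None of these 3 relations had an adjusted permutation p under 0.05. Among the 12 most abundant collagen genes, COL6A3 and COL1A2 had such a p of rho with ADIPOQ, and the others did not. For COL6A3 rho was 0.68, and 0.64 without replicate 27 (permutation adjusted p = 0.0105 and 0.0225). For COL1A2 rho was 0.65, and 0.62 without replicate 27 (permutation adjusted p = 0.00851 and 0.0151).

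The enzymes and chaperones that fold and modify collagen chains were tested in the same fits. Of 19 listed genes 15 were tested and 0 passed the adjusted threshold in any comparison; 12 of 15 were higher at 5000 IU/kg than in the control (median log2 fold change 0.23; 51.0% of all genes were higher), 11 of 15 at 10000 IU/kg (0.24; 57.2% of all genes), and 9 of 15 at 10000 against 5000 IU/kg (0.09; 54.6%). Without replicate 27, 11 of 15 were higher at 10000 IU/kg than in the control (0.05; 51.8% of all genes), and the direction turned at 10000 against 5000 IU/kg, with 5 of 15 higher and a median of -0.11 (50.0%). P4HA1, the catalytic subunit of a prolyl 4-hydroxylase, had 21.2 to 40.3 CPM in the control (median 26.3 CPM) and 18.3 to 127 CPM in D5000 (median 41.9 CPM), and these overlapped. It differed by 0.65 ± 0.27 (unadjusted p = 0.0220, adjusted p = 0.999, edgeR). COLGALT2, a collagen galactosyltransferase, had -0.87 ± 0.70 in that comparison, and HSPA5, a general chaperone of the endoplasmic reticulum, 0.30 ± 0.30. FKBP10, a prolyl isomerase, differed by 1.69 ± 0.80 at 10000 IU/kg against the control (unadjusted p = 0.0428) and by 0.02 ± 0.69 without replicate 27, in which it had 75.5 CPM against at most 11.0 CPM elsewhere. SERPINH1 had 0.58 ± 0.37 with and 0.55 ± 0.37 without that library, and 0.11 without D10000 replicate 26. P3H1, a prolyl 3-hydroxylase, had 0.67 ± 0.49 and 0.28 ± 0.48. PLOD3, a lysyl hydroxylase, had 0.68 ± 0.58 at 10000 against 5000 IU/kg and 0.36 ± 0.57 without replicate 27. P4HA1 had -0.36 ± 0.26 there, and -0.19 without D5000 replicate 18.

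Of 17 genes of secretion, trimming and crosslinking 13 were tested and 0 passed the adjusted threshold. Of these, 7 of 13 were higher at 5000 IU/kg (median 0.11; 51.0% of all genes), 11 of 13 at 10000 IU/kg (0.72; 57.2%) and 10 of 13 at 10000 against 5000 IU/kg (0.55; 54.6%). Without replicate 27, 12 were tested. Of these, 8 of 12 were then higher at 10000 IU/kg than in the control (median 0.22; 51.8% of all genes) and 6 of 12 at 10000 against 5000 IU/kg (0.08; 50.0%). ADAMTS2, which removes the N-terminal propeptide of procollagen, had 1.55 to 17.2 CPM in the control (median 4.40 CPM), 4.16 to 22.5 CPM in D5000 (median 9.09 CPM) and 2.91 to 100 CPM in D10000 (median 11.3 CPM). At 10000 IU/kg it differed from the control by 1.54 ± 0.56 (unadjusted p = 0.00999, adjusted p = 1.00, edgeR), and by 0.91 ± 0.51 without replicate 27, which held the highest value. BMP1, which removes the C-terminal propeptide, went from 1.87 ± 0.84 to -0.06 ± 0.64. PCOLCE, which enhances BMP1, went from 1.38 ± 0.56 to -0.10 ± 0.29, with 1744 CPM in replicate 27 against at most 165 CPM elsewhere. SEC24D, a coat protein of the vesicles that carry procollagen, differed at 10000 against 5000 IU/kg by 0.81 ± 0.39 with and 0.82 ± 0.40 without replicate 27 (unadjusted p = 0.0455 and 0.0476, adjusted p of 0.999 or more, edgeR). LOX, the crosslinking enzyme lysyl oxidase, had 0.41 ± 0.38 at 5000 IU/kg against the control and -0.04 without D5000 replicate 18. Its relative LOXL3 had -1.001 ± 0.99, and -0.55 without control replicate 23.

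Of 11 collagen receptors and uptake genes 9 were tested and 0 passed the adjusted threshold; 5, 7 and 7 of 9 were higher in the 3 comparisons (51.0%, 57.2% and 54.6% of all genes), with medians of 0.03, 0.16 and 0.24. Without replicate 27 these were 5, 6 and 7 of 9 (51.7%, 51.8% and 50.0% of all genes), with medians of 0.04, 0.25 and 0.29. ANTXR2, an anthrax toxin receptor that binds type IV and type VI collagen, had medians of 20.7, 30.2 and 34.1 CPM in the control, D5000 and D10000. Its difference at 10000 IU/kg was 0.45 ± 0.27 with all libraries and 0.56 ± 0.26 without replicate 27 (unadjusted p = 0.101 and 0.0378, edgeR), and 0.28 without D10000 replicate 20. CSPG4, a pericyte proteoglycan that binds type VI collagen, had 1.70 ± 0.89 and 0.25 ± 0.85. ITGA1, the alpha 1 integrin subunit, had 0.64 ± 0.60, and 0.17 without D10000 replicate 7. DDR1, a collagen-binding receptor kinase, had -0.43 ± 0.31, ANTXR1 -0.76 ± 0.59 and DDR2 0.63 ± 0.77 at 5000 IU/kg against the control; DDR2 turned to -0.73 without D5000 replicate 6. At 10000 against 5000 IU/kg CSPG4 had 1.51 ± 0.88 with and 0.05 ± 0.85 without replicate 27, which had 36.9 CPM against at most 4.23 CPM elsewhere. ANTXR1 had 0.79 ± 0.58 with and 0.66 ± 0.58 without it.

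Counts were too few to test 18 of the 35 collagen genes, which had 2 to 253 counts in all and a mean of at most 1.22 CPM. COL11A1, a minor fibrillar chain, had 232 counts in 15 libraries and its highest value, 9.67 CPM, in D10000 replicate 2. COL13A1 had 253 counts in 14 libraries. COL12A1, a FACIT chain of tendon and fascia, had 171 counts in 13 libraries and at most 5.34 CPM, in control replicate 3. COL22A1, a FACIT chain of the junction between muscle and tendon, had 120 counts in 8 libraries, with 6.15 CPM in D10000 replicate 1. COL5A1, a type V chain that pairs with COL5A2 in fibrils, had 60 counts in 6 libraries although COL5A2 had a count in all 25. The same held for COL6A2 (84 counts in 7 libraries) beside COL6A1 and COL6A3. Whether a chain was missed because its 3' end lies outside the annotation was not tested.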

How the data were processed

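One library per pig was made from muscle RNA with the QuantSeq 3' FWD kit of Lexogen, per the labels' protocols, so a read marks the 3' end of a transcript. The deposited values were raw read counts per Ensembl pig gene, made by the authors with tools of which the submitters' processing notes name FastQC; aligner, counter, genome build and annotation were not stated there. Each file ends with 5 summary lines under htseq-count names, which stayed out of library sizes and tests and left 24.9% to 70.6% of a library's reads on genes. The files hold 25880 gene identifiers, 1 of them missing from 1 file, and 25879 were analysed. Ensembl symbols came from a name table, and the order of neighbouring genes from RefSeq Sscrofa11.1; no coordinates are given.

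CPM are counts scaled to the same total of gene counts per library. filterByExpr set aside genes with few counts (minimum count 10, minimum total 15), libraries were scaled by TMM, and diet was fitted over all 25 libraries with glmQLFit and glmQLFTest (robust) of edgeR 4.0.16 in R 4.3.3, with a prior count of 0.125 and Benjamini-Hochberg adjustment over all genes tested (threshold 0.05). Intervals of fitted differences cover 95%. The script was tested on simulated data. DESeq2 1.42.0, other scaling, no filter, assigned share as a covariate, fits of 2 diets and left-out libraries were alternatives. The common biological coefficient of variation was 0.669. Replicates are separate pigs. No label mentions molecular identifiers, so floors cover counting error only.

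Named genes were COL1A1, COL1A2, COL3A1, COL4A2 and COL6A1 to COL6A3, the 12 most abundant collagen genes, those with the 3 smallest p in a comparison with all libraries and without D10000 replicate 27, the largest fitted difference per structural class, the 5 most abundant of those not tested, and the 3 smallest p per list of related genes. COL4A3, COL4A6 and COL5A1 fall outside this rule and were chosen after their values were seen. The collagen genes and all lists were chosen with earlier results of these data known.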

Additional observations from a re-analysis of the deposited data

Results flagged for a closer look

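A library was marked when its value stood apart from the rest of its diet group by Dixon's criterion at 95% (critical value 0.526 for 8 and 0.493 for 9 libraries). Of 57 groups of values 21 held such a library, each as the highest of its group, and groups of different genes share libraries. The criterion's rate of about 1 in 20 holds for normally distributed values. It was applied here to CPM and ratios without a log scale, so that rate is no baseline for the 21.

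D10000 replicate 27 accounted for 11 of the 21. It had 3423 CPM of COL1A1 (next highest in its diet 1565 CPM), 3058 CPM of COL3A1 (957.8 CPM), 436.7 CPM of COL6A1 (54.09 CPM), 433.6 CPM of COL4A2 (101.6 CPM), 382.1 CPM of COL15A1 (120.1 CPM), 314.3 CPM of COL5A2 (57.45 CPM), 289.7 CPM of COL5A3 (13.44 CPM) and 265.9 CPM of COL6A3 (110.6 CPM). Among the less abundant genes it had 25.36 CPM of COL16A1 (14.66 CPM), 20.22 CPM of COL4A5 (2.289 CPM) and 10.73 CPM of COL8A1 (4.755 CPM).

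D5000 replicate 18 stood apart for COL1A2 (435.7 CPM, next 219.8 CPM), COL4A2 (115 CPM, next 64.34 CPM), COL4A5 (25.87 CPM, next 9.494 CPM) and COL8A1 (23.79 CPM, next 5.31 CPM). D10000 replicate 2 stood apart for COL14A1 (308.4 CPM, next 150.8 CPM) and COL4A4 (11.18 CPM, next 2.437 CPM). Single values stood apart for COL5A2 in D5000 replicate 6 (69.62 CPM, next 32.21 CPM), COL16A1 in D5000 replicate 29 (15.26 CPM, next 6.393 CPM) and COL6A5 in D10000 replicate 7 (74.5 CPM, next 31.42 CPM). The ratio of COL1A1 to COL3A1 stood apart in D10000 replicate 1 (9.301, next 2.117).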

How the results depend on the processing

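No collagen gene passed the adjusted threshold under any alternative run, in edgeR or DESeq2 (0 of 15 to 35 tested), nor in the 25 fits that left out 1 library. The median log2 fold change of the collagen genes lay between -0.16 and 0.07 at 5000 IU/kg against control, between 0.15 and 0.71 at 10000 IU/kg and between 0.14 and 0.79 at 10000 against 5000 IU/kg when 1 library was left out; the lowest values of the last 2 came without D10000 replicate 27. No paired analysis was possible because animal numbers are not shared between diets. Litters were spread over the diets, but the labels do not name the litter of each pig, so no fit holds a litter term. Planned relations with COL4A1 could not be computed.

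Of the values of single genes and relations under an alternative, 374 kept their sign and side of the threshold and 30 changed sign; the cause was not tested. With assigned share as a covariate, COL1A1, COL3A1 and COL5A2 became 0.16, 0.10 and 0.064 at 5000 IU/kg against control, and COL18A1, COL4A5 and COL6A5 became -0.095, -0.051 and -0.18 at 10000 IU/kg against control. In DESeq2, COL5A3 was -0.56 at 10000 IU/kg against control and -0.44 at 10000 against 5000 IU/kg.

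Other changes of sign came from leaving out D10000 replicate 27, D5000 replicate 18 and D10000 replicate 2, or all of these (the last 2 settings chosen after seeing the data). At 5000 IU/kg against control the range was -0.028 to 0.093 for COL1A1, -0.11 to 0.037 for COL3A1 and -0.096 to 0.059 for COL5A2. At 10000 IU/kg against control it was -0.060 to 0.097 for COL18A1, -0.19 to 0.52 for COL4A2, -1.23 to 0.20 for COL4A5 and -0.62 to 1.65 for COL5A3. At 10000 against 5000 IU/kg it was -0.49 to 1.78 for COL5A3, -0.10 to 1.16 for COL6A1 and -0.70 to 0.36 for COL8A1. The difference in the log2 ratio of COL1A1 to COL3A1 ranged from -0.093 (without D10000 replicate 1) to 0.29 (without replicate 27) at 10000 IU/kg against control, and from -0.17 to 0.21 at 10000 against 5000 IU/kg. Without replicate 27, r of COL1A1 was -0.040 with SERPINH1 and 0.13 with ACTA1. Leaving out 1 library at a time gave wider ranges for some genes, and other libraries changed signs too. At 5000 IU/kg against control these ranges were -0.18 to 0.10 for COL1A1, -0.36 to 0.07 for COL3A1 and -0.50 to 0.09 for COL5A2. At 10000 IU/kg against control COL6A5 was -0.25 without D10000 replicate 7, and COL18A1 was -0.083 without control replicate 17.

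Depth limited the genes below about 1.22 CPM, which were not tested. With a biological coefficient of variation near 0.669, the 95% interval of COL1A1 at 10000 IU/kg against control still spanned -0.17 to 1.38.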

Other observations

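Without D10000 replicate 27, the spread between pigs differed among the 12 most abundant collagen genes. The coefficient of variation over the other 24 libraries was lowest for COL6A3 (33.7%) and COL14A1 (40.4%) and highest for COL6A5 (71.1%), COL1A2 (66.6%) and COL18A1 (62.3%). With replicate 27 it was 267% for COL5A3 and 201% for COL6A1, against 47.6% and 46.9% without it.

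RefSeq Sscrofa11.1 places 5 pairs of collagen genes next to each other on the genome: COL3A1 with COL5A2, COL4A1 with COL4A2, COL4A4 with COL4A3, COL4A6 with COL4A5, and COL19A1 with COL9A1. COL3A1 and COL5A2 were both counted in all 25 libraries and are the pair with the rho of 0.79 given above. In the other pairs with both genes analysed, 1 neighbour was counted far more often than the other: COL4A4 had 239 counts and COL4A3 had 7, COL4A5 had 858 and COL4A6 had 117.

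D10000 replicate 1 had the lowest COL3A1 (68.2 CPM) and the lowest COL6A1 (3.32 CPM) of the 25 libraries, together with COL5A2 at 9.84 CPM and COL15A1 at 19.8 CPM, each the second lowest. Its COL1A1 was 634 CPM, within the range of the control group.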
